A study of Populus trichocarpa with 9 samples.

Results

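The class III HD-ZIP genes of Populus trichocarpa encode homeodomain-leucine zipper transcription factors, and 8 of them were followed in stem differentiating xylem (SDX) of unbent trees and of trees whose stems had been bent for 3 or 7 days. They were taken by gene identifier as members of the class, with no threshold on their values, and make up 8 of the 41335 gene models in the count table. All 8 passed the filter on low counts, which left 27795 genes to be tested. They are 4 pairs of paralogs (close copies of a gene), named here after the Arabidopsis genes they resemble: REVOLUTA type (Potri.004G211300 and Potri.009G014500), PHB/PHV type (Potri.011G098300 and Potri.001G372300), CORONA type (Potri.001G188800 and Potri.003G050100) and HB8 type (Potri.018G045100 and Potri.006G237500). The letters A and B stand for the first and the second gene of each pair in that order and carry no other meaning.

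Class III HD-ZIP proteins occur in plants and join a DNA-binding homeodomain to a leucine zipper, through which they pair, and to a lipid-binding type of domain called START. In Arabidopsis they direct the upper (adaxial) identity of leaves and the placing of xylem within vascular bundles, and their mRNAs are cut under the guidance of a conserved family of microRNAs. In woody stems genes of this class are active in the cambium, the dividing layer that forms wood, and in the young xylem next to it, which is the tissue sampled here.

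The study bent stems of greenhouse-grown trees, 6 months old, to 90 degrees, which leads to tension wood on the upper side, and sequenced RNA from 9 libraries of SDX. The control group (day 0) came from non-bent trees, and the other groups from stems bent for 3 days and for 7 days, with 3 libraries in each group. SDX was scraped 0.2 to 0.5 mm deep off the upper side of bent stems, or at the same position on control stems, and the labels name no transgene or chemical treatment for any group. Unbent trees harvested at day 3 or day 7 and the lower side of bent stems were not analysed here, so the effect of bending and that of elapsed time cannot be told apart. The study describes its replicates of the bending time points as biological. Whether each was a separate tree is not in the labels, and a p-value here covers the differences among these libraries alone.

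The libraries held 20888144 to 29539805 counts, and 1 count was worth 0.0321 to 0.0482 CPM (counts divided by library size, which was adjusted by the TMM method for differences in composition). Depth was not the limit for these genes, whose lowest value in any library was 24.4 CPM. The tissue label was checked with the 5 cellulose synthases of the secondary wall (PtrCesA4, PtrCesA7, PtrCesA8, PtrCesA17 and PtrCesA18), whose summed level was 6249 to 7316 CPM in the controls, 3295 to 8524 CPM at 3 days and 8001 to 12794 CPM at 7 days. Control replicate 1 stood apart from the other controls on the first principal component of all tested genes, at -99.6 against -25.8 and -43.2. Results whose sign or call changed without it are given with that value. CPM does not correct for gene length, so levels are compared between groups within a gene and not between genes. In such bulk tissue, fewer cells of a type and less RNA per cell cannot be told apart.

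No class III HD-ZIP gene passed edgeR's quasi-likelihood test in any comparison. The same test called 0% of all tested genes at 3 days and between 7 and 3 days, and 8.75% at 7 days, so 0 of 8 does not set the class apart. REVOLUTA type B and HB8 type B passed at 7 days under some alternative settings. Those settings, library totals in place of TMM and DESeq2, called 11.6% and 16% of all genes at 7 days. Transcripts of all 8 were present in every library before bending and after 3 and 7 days of it, and the ratio of the highest to the lowest library ran from 1.31 for CORONA type B to 1.99 for PHB/PHV type B. The lowest values against the controls were those of REVOLUTA type B and of both HB8 type genes at 7 days, at 1.33-fold to 1.39-fold below the controls. Tests were made with edgeR's quasi-likelihood test on all 9 libraries, and a gene was called at an adjusted p (Benjamini-Hochberg, over all 27795 genes) under 0.05.

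**Figure D1:**
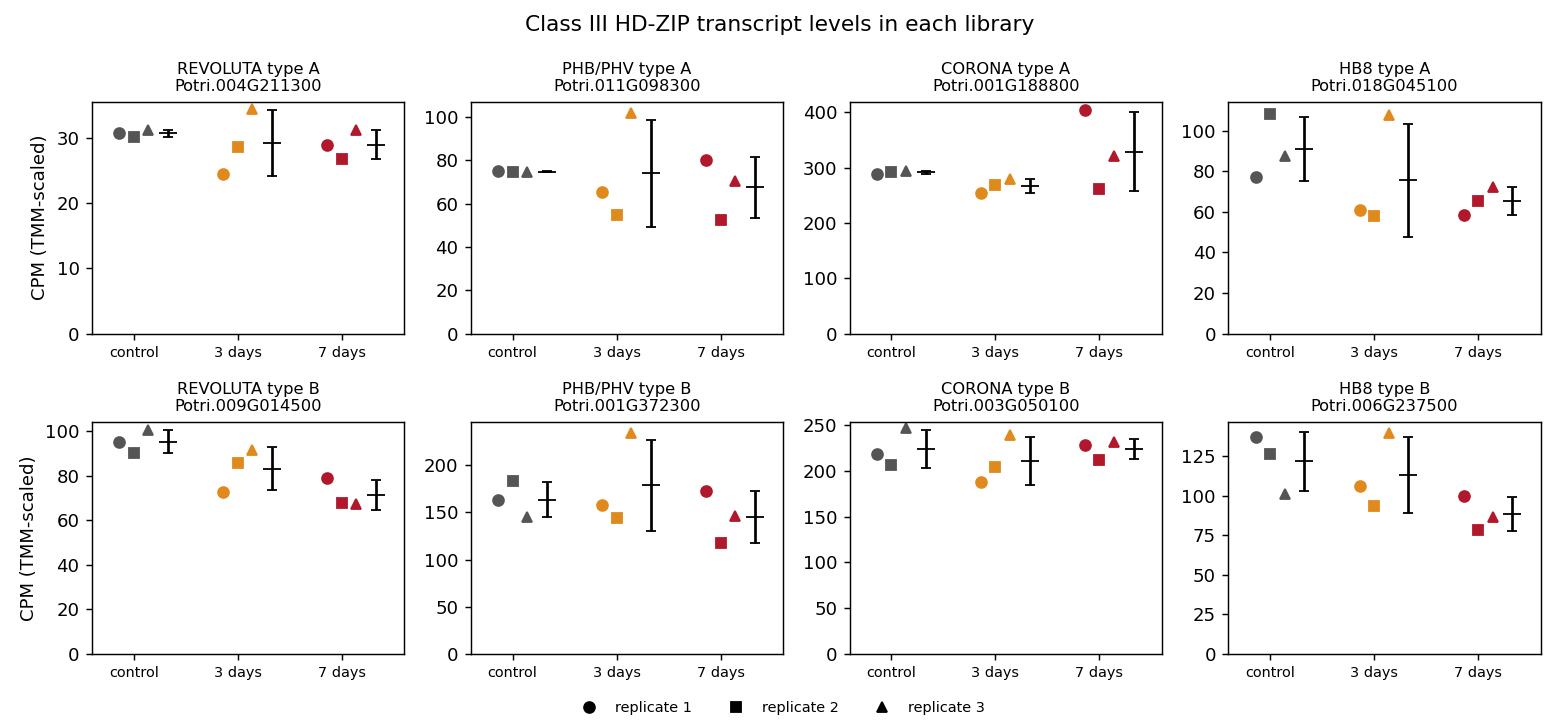
Level of each class III HD-ZIP gene (CPM, TMM-scaled, vertical axis from 0 and scaled per gene) in the control, 3-day and 7-day groups; each point is 1 library, its shape the replicate number, and the bar beside the points gives the mean and SD (n = 3). The 7-day points of REVOLUTA type B and of both HB8 type genes lie below all controls, and 3-day replicate 3 is the highest 3-day point in all 8 panels.

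REVOLUTA, which in Arabidopsis controls the forming of shoot and flower meristems and of the fibres between vascular bundles, has a pair of relatives here. REVOLUTA type A was measured at 30.8, 30.1 and 31.2 CPM in the controls, 24.4, 28.6 and 34.5 CPM at 3 days, and 28.9, 26.8 and 31.1 CPM at 7 days. The controls lay close together, inside the range of the 3-day libraries, and the highest 7-day library was among them. Its log2 fold change was -0.07 (SE 0.14) at 3 days and -0.08 (SE 0.14) at 7 days, with adjusted p of 0.887 and 0.747 in edgeR's quasi-likelihood test.

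REVOLUTA type B gave 94.9, 90.1 and 100.4 CPM in the controls, 72.6, 85.4 and 91.4 CPM at 3 days, and 79.0, 67.8 and 67.0 CPM at 7 days. Every 7-day library lay below every control, while the highest 3-day library was above the lowest control. The group means were 95.1 ± 5.17, 83.1 ± 9.60 and 71.3 ± 6.73 CPM (SD, n = 3 each). At 7 days the log2 fold change against the controls was -0.42 (SE 0.14, 95% interval -0.73 to -0.10), with an unadjusted p of 0.0148 and an adjusted p of 0.0987 in edgeR's quasi-likelihood test. This was the lowest adjusted p of any member in any comparison, and the gene was not called. At 3 days the log2 fold change was -0.19 (SE 0.14), with an adjusted p of 0.630 in the same edgeR test. Its adjusted p at 7 days ranged from 0.0231 to 0.326 over all alternative settings, and it was called at 7 days with library totals in place of TMM (log2 fold change -0.69, adjusted p = 0.0231) and with DESeq2 (-0.40, adjusted p = 0.0339).

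PHABULOSA (PHB) and PHAVOLUTA (PHV) act in Arabidopsis in giving leaves their upper side and in patterning the xylem of the root. PHB/PHV type A was measured at 74.9, 74.7 and 74.6 CPM in the controls, 65.5, 54.6 and 102 CPM at 3 days, and 79.9, 52.3 and 70.5 CPM at 7 days. Libraries of both bent groups lay on either side of the 3 controls, which were nearly equal. Its log2 fold changes were -0.01 (SE 0.24) at 3 days and -0.14 (SE 0.24) at 7 days, with adjusted p of 0.989 and 0.737 in edgeR's quasi-likelihood test. Without control replicate 1 the 3-day value was 0.01.

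PHB/PHV type B gave 163, 183 and 145 CPM in the controls, 158, 144 and 234 CPM at 3 days, and 173, 118 and 146 CPM at 7 days. The groups overlapped throughout, and the highest and lowest of all 9 libraries were 3-day replicate 3 and 7-day replicate 2. Its log2 fold change was 0.13 (SE 0.23) at 3 days, the only value above 0 among the 8 genes at that time, and -0.17 (SE 0.23) at 7 days, with adjusted p of 0.872 and 0.671 in edgeR's quasi-likelihood test. Without 3-day replicate 3 the 3-day value turned to -0.10.

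CORONA (also ATHB15) is best known in Arabidopsis for its part in shoot meristem size and in vascular development. CORONA type A was measured at 289, 292 and 295 CPM in the controls, 254, 268 and 279.6 CPM at 3 days, and 404, 261 and 321 CPM at 7 days. All 3-day libraries lay below all controls by a small margin, whereas 7-day libraries lay both above and below the controls. The means were 292 ± 2.76, 267 ± 12.8 and 329 ± 71.6 CPM (SD, n = 3 each). Its log2 fold change was -0.13 (SE 0.18) at 3 days and 0.17 (SE 0.18) at 7 days, with adjusted p of 0.837 and 0.592 in edgeR's quasi-likelihood test. The 7-day value was the only one above 0 among the 8 genes at that time, and it was -0.12 with library totals in place of TMM.

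CORONA type B gave 219, 206 and 247 CPM in the controls, 188, 204 and 239.5 CPM at 3 days, and 229, 212 and 232 CPM at 7 days. It was the most even of the 8 genes, and its 7-day libraries all fell within the range of the controls. Its log2 fold change was -0.09 (SE 0.16, 95% interval -0.45 to 0.26) at 3 days and -0.00 (SE 0.16, 95% interval -0.36 to 0.35) at 7 days. The adjusted p in edgeR's quasi-likelihood test was 0.869 at 3 days and 1.00 at 7 days.

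ATHB8 marks the procambium, the precursor tissue of xylem and phloem, in Arabidopsis, where it is switched on by auxin through the factor MONOPTEROS. HB8 type A was measured at 77.1, 108 and 87.4 CPM in the controls, 60.7, 58.0 and 108 CPM at 3 days, and 58.3, 65.5 and 72.3 CPM at 7 days. The 7-day libraries lay below all controls, and the 3-day group was split, with replicate 3 near the highest control and the others below the lowest. The 7-day log2 fold change was -0.48 (SE 0.25, 95% interval -1.04 to 0.08), with an unadjusted p of 0.0873 and an adjusted p of 0.262 in edgeR's quasi-likelihood test. At 3 days it was -0.27 (SE 0.25, adjusted p = 0.722 in the same edgeR test), and it moved with single libraries, to -0.60 (adjusted p = 0.261) without 3-day replicate 3 and to -0.08, -0.10 and -0.11 without control replicate 2, 3-day replicate 1 and 3-day replicate 2.

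HB8 type B gave 137, 126 and 101 CPM in the controls, 106, 93.5 and 139.9 CPM at 3 days, and 99.7, 78.4 and 86.7 CPM at 7 days. The 7-day libraries again lay below all controls, although the highest of them came close to the lowest control. The means were 122 ± 18.6, 113 ± 24.0 and 88.3 ± 10.7 CPM (SD, n = 3 each). At 7 days the log2 fold change was -0.46 (SE 0.19, 95% interval -0.90 to -0.03), with an unadjusted p of 0.0404 and an adjusted p of 0.170 in edgeR's quasi-likelihood test. At 3 days it was -0.10 (SE 0.19), with an adjusted p of 0.880 in the same edgeR test. Over all alternative settings the 7-day adjusted p ranged from 0.0457 to 0.393, and the gene was called only with library totals (-0.74, adjusted p = 0.0457). Without control replicate 1 the 7-day values of REVOLUTA type B, HB8 type A and HB8 type B were -0.44, -0.60 and -0.39, and the 3-day value of HB8 type B turned to 0.02.

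Read over the whole class, the comparison of 3 days with the controls found 0 of 8 genes called and 0 at an unadjusted p under 0.05 in edgeR's quasi-likelihood test, where 0% and 11.7% of all tested genes were. DESeq2 and edgeR's exact test also called 0 of the 8 at 3 days, beside 3.28% and 1.69% of all tested genes. The log2 fold change was negative for 7 of 8, against 50.6% of all tested genes, with a median of -0.10 beside -0.00 over all genes. PHB/PHV type A counted among the 7 at -0.01, and it lay above 0 with RLE factors and with DESeq2 (0.0029 each). With 1 library left out, from 4 of 8 (without 3-day replicate 1) to 8 of 8 (without 3-day replicate 3) were negative. CORONA type A was the 1 gene whose groups did not overlap, with all 3-day libraries lower, which was the case for 8.04% of all tested genes, beside 15.1% that did not overlap in either direction.

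At 7 days edgeR's quasi-likelihood test again called 0 of 8, where 8.75% of all tested genes were called. REVOLUTA type B and HB8 type B had an unadjusted p under 0.05, 2 of 8 beside 26.1% of all genes, and both lay lower, as 12% of all genes did at that p. The 7-day libraries of 3 of 8 genes lay below all controls (REVOLUTA type B and both HB8 type genes), beside 14.7% of all genes, and none lay above (31% of all genes did not overlap in either direction). The log2 fold change was negative for 7 of 8, against 54.8% of all genes, with a median of -0.16 beside -0.06. CORONA type B counted among the 7 at -0.0003, and it lay above 0 with RLE factors and with DESeq2 (0.018 each). Both comparisons share the 3 controls, so their values stand side by side and are not separate evidence. With library totals in place of TMM the median of all genes itself lay at -0.33 at 7 days, and 2 of the 8 genes were called lower (REVOLUTA type B and HB8 type B), beside 11.6% of all genes called in either direction. With DESeq2 REVOLUTA type B was called, 1 of 8 beside 16% of all genes, and with edgeR's exact test 0 of 8 beside 12.3%.

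Between 7 and 3 days edgeR's quasi-likelihood test called 0 of 8 and 0% of all tested genes, and 0 of 8 had an unadjusted p under 0.05, beside 20.2% of all genes. DESeq2 and edgeR's exact test called 0 of the 8 here as well, beside 6.42% and 3.06% of all genes. No member had groups that did not overlap, beside 25.7% of all genes. The log2 fold change was negative for 6 of 8, beside 52.2% of all genes, and ran from -0.36 (HB8 type B, adjusted p = 0.318) to 0.30 (CORONA type A, adjusted p = 0.376). In the test of any difference among the 3 groups 0 of 8 were called, beside 4.64% of all genes, and REVOLUTA type B had the lowest adjusted p at 0.194 (unadjusted p = 0.0440, edgeR's quasi-likelihood test). It was the 1 member with an unadjusted p under 0.05 there, beside 24.3% of all genes, and DESeq2 called 0 of 8 beside 15.7% of all genes.

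**Figure D2:**
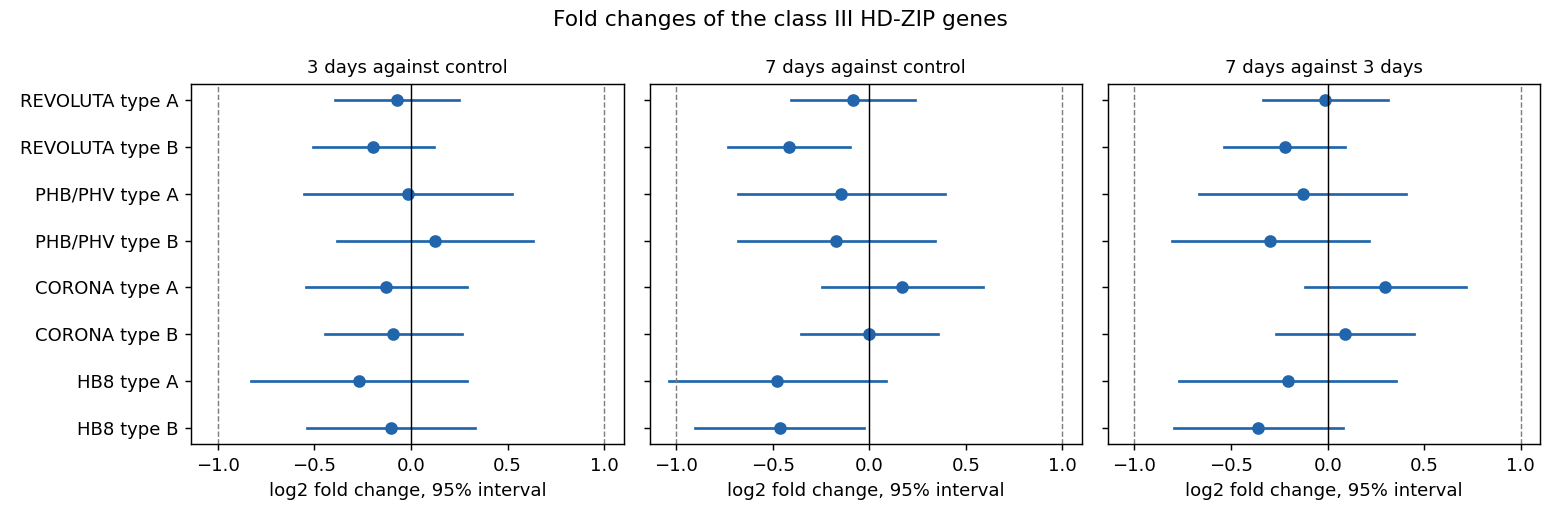
Log2 fold change of each class III HD-ZIP gene (point) with its 95% interval (line) for 3 days against control, 7 days against control and 7 days against 3 days; dashed lines mark a 2-fold change either way. The intervals of REVOLUTA type B and HB8 type B at 7 days lie below 0 and the other 22 contain 0, and only that of HB8 type A at 7 days passes the 2-fold line.

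The precision of these values sets how large a change could have been missed. Of the 24 intervals (8 genes in 3 comparisons), 23 lay within a 2-fold change in either direction, and the exception was HB8 type A at 7 days, whose interval reached -1.04 on the log2 scale. Standard errors ran from 0.14 to 0.25. The biological coefficient of variation that edgeR fitted for the members was 15.5% to 23.3%, below the 30.9% common to all genes. The common value takes in genes of every level. For genes at the members' own levels the fitted trend was 22.6% to 24.8%, and HB8 type A (23.3% against a trend of 23.2%) was not below it.

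**Figure D3:**
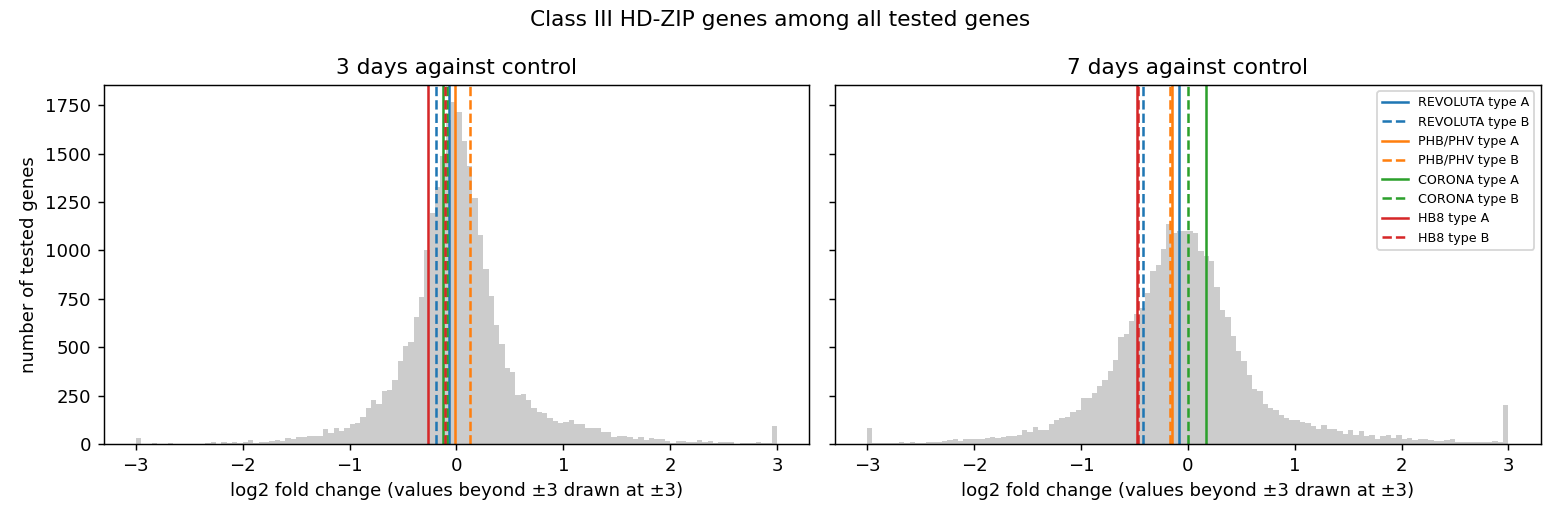
Number of tested genes (grey) by log2 fold change at 3 days and at 7 days against the controls, with each class III HD-ZIP gene as a line (solid for A, dashed for B of a pair). The lines lie in the central part of both distributions, between -0.27 and 0.13 at 3 days and between -0.48 and 0.17 at 7 days.

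Variation over the 9 libraries, whatever their group, was small for part of the class. The SD of log2 CPM was 0.13 for CORONA type B, and 3.58% of genes with a mean of at least 1 CPM varied less. REVOLUTA type A was next at 0.14 (5.97% of genes varied less), followed by CORONA type A (18.1%) and REVOLUTA type B (21.6%). HB8 type A varied most, at 0.35, and 50.9% of genes varied less. The genes compared reach down to 1 CPM, below the levels of the members, and these percentages were not adjusted for level.

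Replicates of a group also differed from each other across the class. The 3-day replicate 3 was the highest library of its group for 8 of 8 members, while it was the highest for 36.1% of all tested genes. In the same library all 5 secondary wall cellulose synthases and 15 of 22 monolignol (lignin precursor) genes of the study were at their lowest for the group. Of all tested genes, 38% were lowest there. Summed cellulose synthase levels were 5339, 8524 and 3295 CPM in 3-day replicates 1, 2 and 3. At 7 days, replicate 2 was the lowest for 6 of 8 members (41.1% of all genes were lowest there), and it was also the lowest for all 5 cellulose synthases and for 18 of 22 monolignol genes. Members and wall genes thus stood at opposite ends of their group in the first of these libraries and at the same end in the second. The part of these library differences in the members' values was not tested. Leaving out 3-day replicate 3, the highest of its group, lowers the 3-day mean of each member by construction, and the log2 fold changes were then negative for 8 of 8 members, from -0.60 to -0.10. They were negative for 4 of 8 without 3-day replicate 1 (-0.10 to 0.25) and for 5 of 8 without 3-day replicate 2 (-0.22 to 0.26), and 0 members were called under each of these omissions.

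The level of the class as a whole was described by a sum. The CPM of the 8 genes summed to 1086, 1111 and 1082 in the controls, to 929, 937 and 1229 at 3 days and to 1151, 882 and 1027 at 7 days. The controls were close together, and libraries of both bent groups lay above and below them. Means were 1093 ± 16.0, 1031 ± 171 and 1020 ± 135 CPM (SD, n = 3 each). With library totals in place of TMM they were 1178, 1082 and 905 CPM, a wider gap between 7 days and the controls.

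Within this sum the share of each pair was described from the counts of each library, 18275 to 34574 counts for the 8 genes together. Gene length enters these shares, so only their change between groups can be read. The CORONA type pair held 44.9% to 50.1% of the class counts in the controls, 42.3% to 50.4% at 3 days and 53.7% to 54.9% at 7 days. All 7-day libraries were thus above all controls and all 3-day libraries. The HB8 type pair held 17.4% to 21.1% in the controls, 16.2% to 20.2% at 3 days and 13.7% to 16.3% at 7 days, so that its 7-day libraries lay below all controls and overlapped the 3-day group. The mean share of the REVOLUTA type pair was 11.5% ± 0.677, 10.95% ± 1.06 and 9.89% ± 0.733, and that of the PHB/PHV type pair 21.8% ± 1.45, 24.2% ± 3.06 and 20.8% ± 1.36, in the controls, at 3 days and at 7 days (SD, n = 3 each). These shares sum to a fixed total, so that a higher share of one pair lowers the others, and they were not tested.

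**Figure D4:**
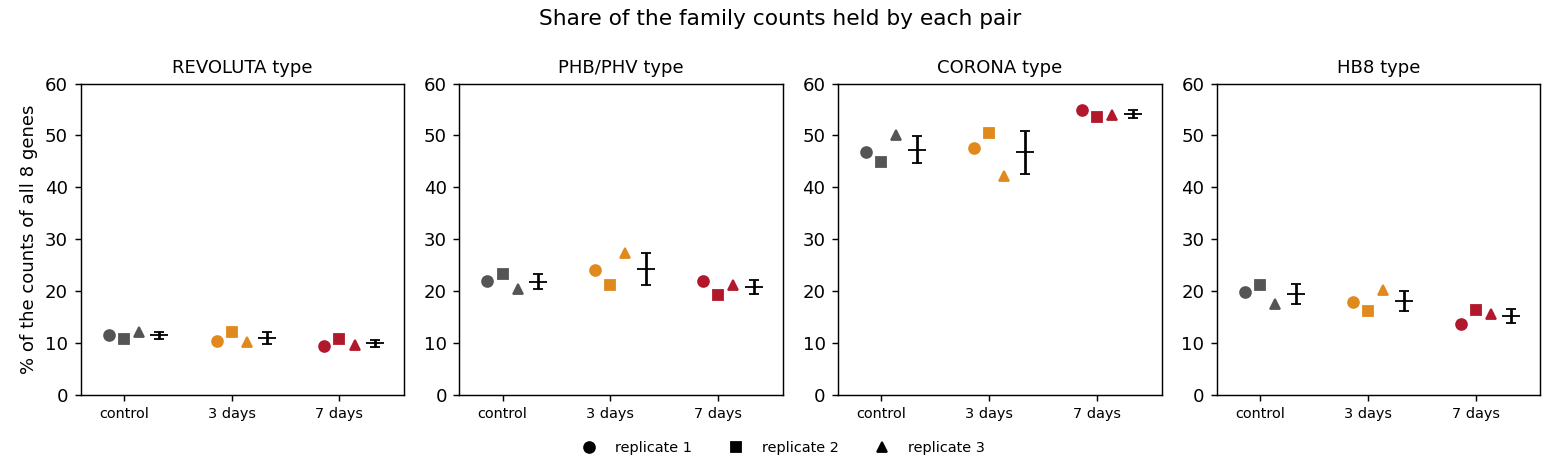
Share of the counts of all 8 class III HD-ZIP genes held by each pair (percent, from 0) in each library of the 3 groups, with the mean and SD (n = 3) beside the points. The CORONA type pair lies at 53.7% to 54.9% at 7 days, above every other library, and the HB8 type pair at 13.7% to 16.3%, below every control.

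The ratio of the 2 copies of a pair in the same library needs no scaling factor, and its change between groups was tested for the 4 pairs. For the REVOLUTA type pair, counts of A were 0.325, 0.334 and 0.311 times those of B in the controls, 0.337, 0.336 and 0.378 at 3 days, and 0.366, 0.396 and 0.465 at 7 days. Every 7-day library had a higher ratio than every control, and the 3-day libraries lay between, with the highest of them inside the 7-day range. The log2 ratio was -1.63 ± 0.0537 in the controls, -1.52 ± 0.0965 at 3 days and -1.30 ± 0.175 at 7 days (SD, n = 3 each), a difference of 0.33 between 7 days and the controls. The exact permutation test of a difference among the 3 groups gave p = 0.0393, and 0.157 after adjustment over the 4 ratios, so that the shift did not pass the correction. The smallest p this test can give is 0.00357. Leaving out 1 library at a time moved the unadjusted exact p over 0.00357 to 0.0964. It was 0.0964 without control replicate 1, and it stayed under 0.05 only without 3-day replicate 3 or without 7-day replicate 1.

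For the other pairs the exact permutation test gave adjusted p of 0.429 (PHB/PHV type), 0.554 (CORONA type) and 0.554 (HB8 type), and the unadjusted exact p of the PHB/PHV type pair went from 0.214 to 0.0357 without control replicate 2. The log2 ratio of the PHB/PHV type pair was -1.12, -1.29 and -1.11 in the controls, at 3 days and at 7 days, and that of the CORONA type pair 0.39, 0.35 and 0.53. For the HB8 type pair the means were -0.42, -0.62 and -0.43. In each group its lowest ratio was in replicate 1, at -0.83, -0.81 and -0.77, while the highest value of each group was -0.21, -0.38 and -0.26. The counting of reads that match both copies of a pair is not given in the sources used here, so the level of each copy and these ratios are uncertain to that extent.

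**Figure D5:**
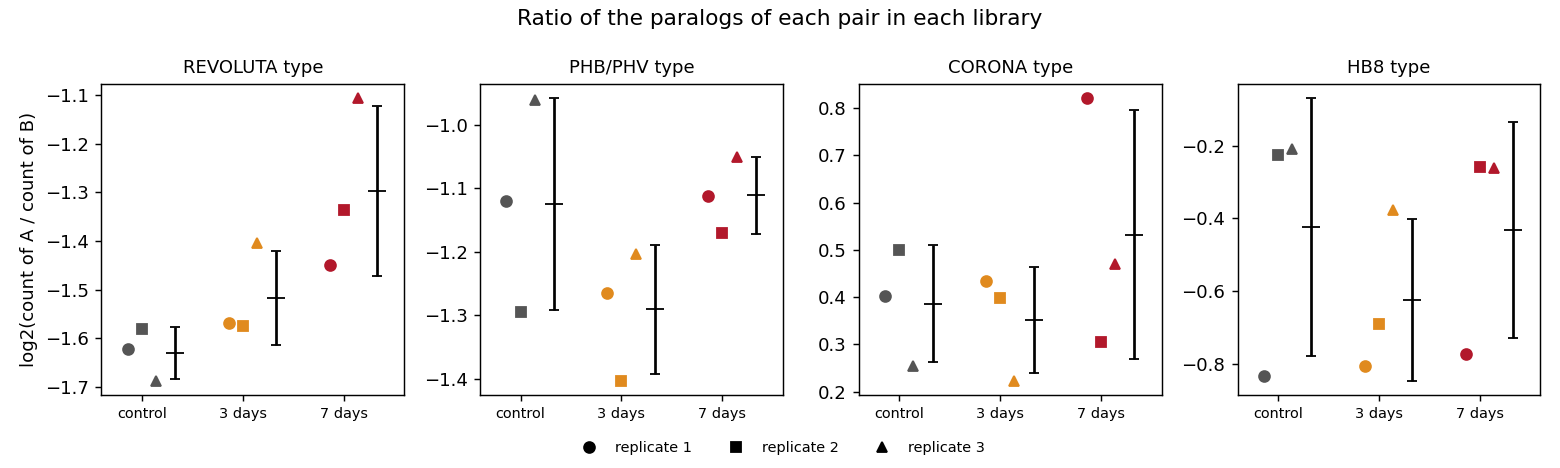
Log2 ratio of the counts of gene A to gene B of each pair in each library of the 3 groups, with the mean and SD (n = 3) beside the points and an axis scaled per pair. The REVOLUTA type ratio is higher in every 7-day library than in every control, and the HB8 type ratio is lowest in replicate 1 of each group.

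The likeness of profiles was measured as the root mean square distance between log2 CPM values, each centred on its mean over the 9 libraries, so that a smaller distance is a closer profile. The PHB/PHV type copies followed each other closely, at 0.13, and among all tested genes the paralog ranked at 19 for type A and at 52 for type B. For the other pairs the paralog was farther down, with 1.80% (REVOLUTA type B) to 8.71% (HB8 type B) of genes closer. The unknown counting of reads that match both copies leaves the likeness of paralogs uncertain as well. REVOLUTA type A lay nearest, among the members, to CORONA type B, at a distance of 0.0799, and not to its own paralog, at 0.169. These 2 genes varied least of the members (SD of log2 CPM 0.14 and 0.13). Profiles were not scaled to equal spread, so genes that vary little lie close whatever their pattern, and the ranks of paralogs depend on this as well. HB8 type B was nearer to PHB/PHV type B, at 0.156, than to HB8 type A, at 0.259. These distances rest on 9 libraries that share their depth and scaling, and carry no test.

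Outside the class, the nearest gene to each pair's mean profile was sought among 24998 tested genes with a mean of at least 1 CPM. It was Potri.005G189600 for the REVOLUTA type (distance 0.0591), Potri.001G293600 for the PHB/PHV type (0.0657), Potri.008G118900 for the CORONA type (0.0423) and Potri.011G143200 for the HB8 type (0.0515). The first of these had means of 22.5, 20.4 and 19.6 CPM in the controls, at 3 days and at 7 days, and the last 12.5, 10.9 and 9.14 CPM. The gene nearest to the CORONA type had 56.1, 50.9 and 59.8 CPM. The gene nearest to the PHB/PHV type had only 1.81, 1.96 and 1.62 CPM, near the limit of 1 CPM, so its profile is less certain. All are the closest of many genes searched, over few libraries.

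The study pairs 31 other genes of wood formation with names, and these give a view of the wall genes in the same libraries. At 3 days edgeR's quasi-likelihood test called 0 of 31 at the adjusted threshold and 13 at an unadjusted p under 0.05, DESeq2 called 7 lower and edgeR's exact test 5 lower. Of the monolignol genes, 21 of 22 monolignol genes had a negative log2 fold change, with a median of -0.76 beside -0.00 over all genes. In edgeR's quasi-likelihood test the smallest adjusted p at 3 days was that of PtrHSFB3-1, a heat shock type transcription factor, at 0.141. PtrCslA2, a glucomannan synthase, followed at 0.184. The study's own analysis did call genes at 3 days. It reported PtrHSFB3-1 and the other listed transcription factor as lower then, at a smaller adjusted p than here. At 7 days 2 monolignol genes were called lower, and of the other lists both transcription factors and 1 hemicellulose gene were called lower and 1 cellulose synthase higher, in all 1 of 31 higher and 5 lower. DESeq2 called 5 higher and 7 lower at 7 days, and edgeR's exact test 6 higher and 7 lower. Of the monolignol genes 8 of 22 had a negative log2 fold change at 7 days, with a median of 0.15 beside -0.06 over all genes, and the 7-day libraries of 3 lay above all controls and those of 5 below. PtrHSFB3-1 (log2 fold change -1.53, adjusted p = 0.0139) and PtrPAL1 (-2.12, adjusted p = 0.0169), a gene of the first step from phenylalanine to lignin, fell in edgeR's quasi-likelihood test. Between 7 and 3 days the smallest adjusted p were 0.149 for PtrCSE2 and 0.151 for PtrCAD1, and 0 of 31 were called (17 at an unadjusted p under 0.05), while DESeq2 called 10 higher and edgeR's exact test 3 higher. The study picked PtrHSFB3-1 and the other transcription factor for their fall in these samples, so the direction of this pair is not independent evidence.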

How the data were processed

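The authors deposited raw counts per gene model for 9 SDX libraries, whole numbers with no normalization. TopHat is named in the submitters' processing notes. The gene models are marked as version 3 in the deposited table. The study names a genome version for its protoplast libraries, but for the bending libraries the build aligned to, the program that counted, whether it used strand, and what became of reads matching several genes are not stated in the sources used here. Each column carried a name that fits 1 sample, and 0 columns were left over. Counts were analysed with edgeR 4.0.16 (limma 3.58.1, R 4.3.3): filterByExpr, TMM factors, and quasi-likelihood tests with a shared spread over the 3 groups. Standard errors of log2 fold changes were taken from the F statistic, and intervals are at 95%. A pseudocount of 0.5 was added before paralog ratios. DESeq2 1.42.0, edgeR's exact test, other scaling and filters, fits of the compared groups alone, the replicate number as a block, and leaving out each library were alternatives. The scripts were tested on simulated data.

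Groups and replicate numbers came from sample titles. No replicate was a library deposited again, since pairs within a group gave a mean chi-square of 22.0 to 92.4 over genes, far above sampling noise, and 0 genes had counts identical to a member's. Same-numbered libraries at 3 and at 7 days correlated in their deviations from group means at 0.280, 0.244 and 0.174, each over 0.1, and no label says what a number marks. Different-numbered libraries of these 2 groups gave -0.272 to 0.029, but control replicate 2 with 3-day replicate 3 gave 0.330. These values therefore do not establish a pairing. The main tests used no pairing, and the replicate number entered only as a block in an alternative fit. Control replicate 1 correlated with the same-numbered bent libraries at 0.392 (3 days) and 0.122 (7 days). Control replicates 2 and 3 gave -0.341 to 0.021 with theirs. Named were all 8 members, at most 2 wood genes of the study with the smallest adjusted p in each comparison, and the nearest gene to each pair. Membership used no measured value, but the class and the lists were proposed with earlier results of these data known. Of the gene identifiers, 0 matched the RefSeq gene table at hand, so the names are those of the member list and of the study.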

Additional observations from a re-analysis of the deposited data

How the results depend on the processing

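The values of single members under alternative settings were 528 log2 fold changes and adjusted p for any difference, and the latter have no direction and cannot change sign. Of these, 492 kept their side of the threshold and, where they have one, their direction, 33 changed sign and 3 became called. The members called at 7 days were 2 with library totals and 1 with DESeq2, beside 11.6% and 16% of all genes. Values that changed sign were at most 0.16 in size. At 3 days PHB/PHV type A gave 0.0029 with RLE factors and with DESeq2, 0.0028 with edgeR's exact test, 0.0034 with the compared groups alone, 0.011 with no filter and 0.018 with the stricter filter. At 7 days CORONA type B gave 0.018 with RLE factors and with DESeq2, and with library totals CORONA type A gave -0.12 and, for 7 against 3 days, CORONA type B -0.14. Library totals also moved the summed level of the class from 1093 to 1178 CPM in the controls and from 1020 to 905 CPM at 7 days.

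Leaving out 1 library at a time changed the sign of these log2 fold changes, with ranges over the 9 omissions. At 3 days they were PHB/PHV type A from -0.29 to 0.16, HB8 type B from -0.26 to 0.016, CORONA type B from -0.17 to 0.022, REVOLUTA type A from -0.19 to 0.078 and PHB/PHV type B from -0.10 to 0.26. At 7 days they were CORONA type B from -0.060 to 0.063, CORONA type A from -0.0011 to 0.32 and PHB/PHV type A from -0.28 to 0.013. For 7 against 3 days they were CORONA type B from -0.034 to 0.16, REVOLUTA type A from -0.17 to 0.092, PHB/PHV type A from -0.30 to 0.13 and HB8 type A from -0.39 to 0.11.

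Over all genes, the number called with DESeq2 was 913 at 3 days, 4438 at 7 days, 1785 for 7 against 3 days and 4363 for any difference, against 0, 2432, 0 and 1291, and edgeR's exact test called 469 at 3 days, 3431 at 7 days and 850 for 7 against 3 days. With 1 library left out the counts were 0 to 30, 343 to 2704, 0 to 3 and 0 to 1626. At 7 days 643, 983, 910 and 343 genes were called without control replicate 1, control replicate 3, 7-day replicate 1 and 7-day replicate 3, and without each of these 0 were called for any difference (336 without 3-day replicate 1). The unadjusted exact p of the paralog ratio ranged from 0.00357 to 0.0964 (REVOLUTA type) and from 0.0357 to 0.479 (PHB/PHV type) under the same omissions.

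With the replicate number as a block, CORONA type B at 7 days gave 0.0039, and the genes called for any difference were 817. The REVOLUTA type ratio gave an unadjusted p = 0.0278 by exact permutation within numbers, the smallest p that test allows. This p was not adjusted over the ratios of the pairs. Of the controls only replicate 1 followed the same-numbered bent libraries, so the block has no shown basis for the controls as a set. For 7 against 3 days the block left 0 members and 0 genes called, and it changed no other call of a member.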
